A study of Mus musculus with 6 samples.

Results

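The genes described here are those of the CD3 chains and of the first signalling proteins behind the T cell receptor (TCR): Cd3e, Cd3d, Cd3g, Cd247, Lck, Zap70, Txk, Lat and Lcp2. They were taken by symbol from the authors' deposited table, and all 9 were found among its 22609 genes. The table compares early T cell progenitors (ETPs), the most immature thymocytes, of 2 genotypes, taken by cell sorting from fetal thymus. The strain was C57BL/6 and the fetal age is not stated. The double-knockout (dKO) group, genotype E2Afl/flHEBfl/flIL7RCre, had 3 RNA-seq libraries, and the wild-type control group also had 3. In dKO mice the floxed genes of E2A (Tcf3) and HEB (Tcf12) are deleted in cells that have expressed the Cre recombinase, whose name places it under Il7r, the gene of the interleukin 7 receptor. Cells of both groups were sorted as lineage-negative, CD44-positive and c-Kit-positive and without CD4, CD8 or CD25. The dKO cells were sorted for YFP as well, so the effects of genotype and of this extra gate cannot be told apart. The labels do not say whether each library had its own animal, so the p-values reflect variation among these 6 libraries, part of which may be technical.

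The TCR has no signalling part of its own. It depends on the CD3 gamma, delta and epsilon chains and on the zeta chain (Cd247), whose cytoplasmic tails carry tyrosine motifs called ITAMs. The kinase Lck phosphorylates the ITAMs, ZAP-70 binds to them and phosphorylates the adaptors LAT and SLP-76 (Lcp2), and Tec family kinases such as Txk act with these adaptors on phospholipase C gamma. In the thymus the same machinery first serves the pre-TCR, which pairs a TCR beta chain with the pre-TCR alpha chain (Ptcra). E2A and HEB are E proteins, transcription factors that bind the DNA letters CANNTG, the E-box, and act in early lymphocyte development. The zeta chain and ZAP-70 also signal downstream of receptors of natural killer (NK) cells.

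For each gene the authors' deposited table holds a mean normalised count of either group with the outcome of their own test, and nothing per library. Genes with an authors' adjusted p under 0.05 were taken to have passed, and rose or fell according to the 2 means. The spacing of the low means gives the relative depth of each library. With the same normalised total assumed for each library of a group, dKO libraries had approximately 24.3 to 27.0 M counted reads. Control libraries had approximately 18.2 to 22.6 M. Both targeted genes were lower: Tcf3 had a mean of 364 in dKO and 8931 in control, and Tcf12 had 562 in dKO and 3845 in control, in the authors' deposited table. Of 8 ETP markers 3 rose, 3 fell and 2 did not pass, where 15.1% of all tested genes rose and 13.8% fell. Kit (19067 in dKO, 14094 in control), Ptprc (17415 in dKO, 12323 in control) and Il7r (3959 in dKO, 3235 in control) rose in the authors' deposited table. Notch1 (1829 in dKO, 10176 in control), Flt3 (327 in dKO, 1080 in control) and Cd34 (1770 in dKO, 4957 in control) fell in the authors' deposited table. In the authors' deposited table neither Cd44 (2765 in dKO, 3220 in control) nor Thy1 (742 in dKO, 528 in control) passed.

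Of the 9 genes, 4 were higher in dKO, 4 were lower and Lat did not pass. Cd247, Zap70, Txk and Lcp2 rose, and Cd3e, Cd3d, Cd3g and Lck fell. In bulk RNA a smaller share of cells of a kind and less RNA per cell cannot be told apart. Among all tested genes 29.0% passed in either direction, 15.1% as higher and 13.8% as lower. All 9 genes had a mean of at least 100 over both groups, and of 10302 tested genes at that level 40.4% passed, 21.2% as higher and 19.1% as lower. The median log2 change of the 9 genes was -0.034, which is the value of Lat because 4 genes rose and 4 fell. The median was -0.019 over all 16241 tested genes and 0.0055 over those with a mean of at least 100. By class, 3 of the 4 CD3 chains fell and 1 rose, with a median log2 change of -1.55. Of the 5 kinases and adaptors 3 rose, 1 fell and Lat did not pass, and the median was 0.78. Under each other call rule tried, 4 of the 9 genes rose and 4 fell, while the background shares differed. At an adjusted p under 0.01, 21.8% of tested genes passed (11.7% higher, 10.2% lower), and at one under 0.1, 33.5% did (17.4% higher, 16.1% lower). With p-values readjusted over genes whose mean reached 10 the share was 37.8% (19.7% higher, 18.1% lower), and over those whose mean reached 100 it was 42.7% (22.4% higher, 20.3% lower). With a minimum of 1.5-fold it was 19.9% (10.7% higher, 9.22% lower). With group means rescaled to equal totals it was 30.3% (12.9% higher, 17.4% lower), and rescaled to a median change of 0 it was 29.0% (15.0% higher, 14.1% lower). The difference between the classes was not tested, since genes are not replicates and no values per library exist for most of them.

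**Figure D1:**
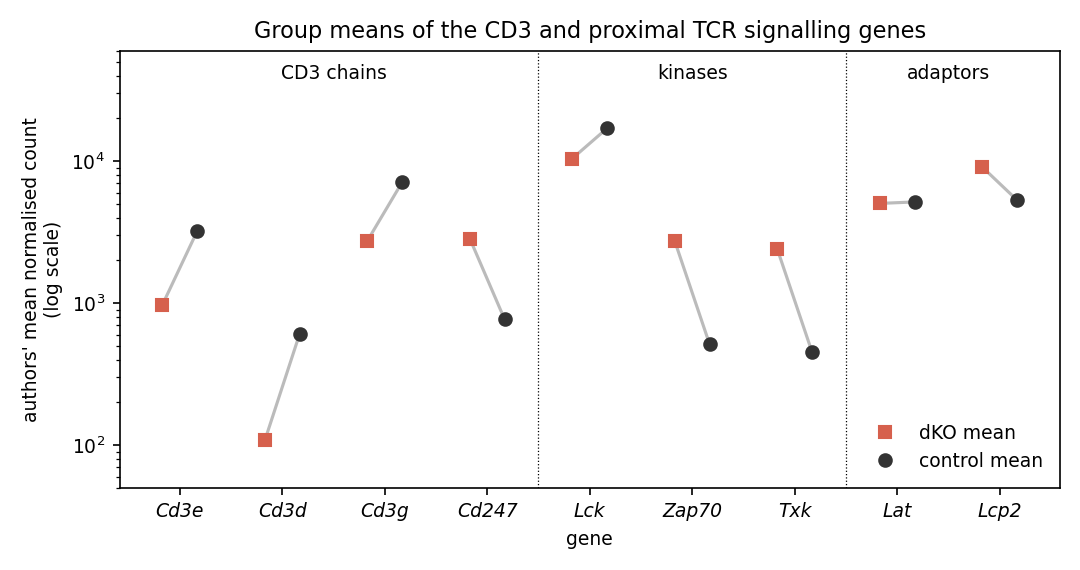
Authors' mean normalised count (y axis, log scale) of each gene (x axis) in dKO (squares) and control (circles), with no error bars because the table gives only group means. Levels can be compared within a gene, and lines slope up toward control for Cd3e, Cd3d, Cd3g and Lck and down for Cd247, Zap70, Txk and Lcp2.

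The 3 chains encoded side by side on chromosome 9 all fell. Cd3e, the epsilon chain that pairs with either CD3 delta or CD3 gamma, had a mean normalised count of 974 in dKO and 3224 in control in the authors' deposited table (authors' adjusted p = 1.24e-14). This is a 3.31-fold fall, or a log2 change of -1.73 with an approximate standard error of 0.21, an error derived from the authors' p-value on the assumption that the log2 change is normally distributed. Cd3d, the delta chain, had 108 in dKO and 610 in control in the authors' deposited table. It was 5.64-fold lower (log2 change -2.50 with an approximate error of 0.34), at an adjusted p of 5.55e-12 in the authors' deposited table. Cd3g, the gamma chain, had 2748 in dKO and 7123 in control in the authors' deposited table, 2.59-fold lower (log2 change -1.37, authors' adjusted p = 0.00761). The approximate error of Cd3g was 0.44, the widest of the 9 genes, and its 95% interval ran from -2.23 to -0.52 on the log2 scale. Ranked by log2 change from the bottom of the 10302 genes with a mean of at least 100, Cd3d was 107, Cd3e 271 and Cd3g 405.

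The dKO mean of Cd3d could be split into whole reads of its libraries, because only 1 combination of reads gives the deposited value. The normalised counts were 39.8, 209 and 75.1 in the dKO libraries of size factor 1.16, 1.08 and 1.04, where the size factor is a library's relative depth. The library of size factor 1.08 was high and the other two were low, and all 3 lay under the control mean of 610. Since 7 combinations give that control mean, whether the groups overlap is not known. Without the library of size factor 1.08 Cd3d was 10.6-fold lower in dKO, against 4.29-fold without that of size factor 1.16 and 4.90-fold without that of size factor 1.04. With a control library left out instead, Cd3d was 1.66-fold to 8.46-fold lower in dKO over the 7 combinations. Both ends of this range came without the control library of size factor 1.02. Its reads varied most among the combinations, from 1 to 1507, so these ends do not mark that library as different. For Cd3e in dKO 2 combinations gave the mean. Both put 1220 normalised counts in the library of size factor 1.04, and they put 583 or 930 in that of size factor 1.16 and 1119 or 772 in that of size factor 1.08. Under either combination each dKO library lay below the control mean of 3224. The other means of the 9 genes had several combinations or lay above 1000, so no single set of values per library can be given for them. For Cd247, Zap70 and Txk in control the combinations still set a limit. Under each of the 8 combinations for Cd247 the highest control library had at most 1837, under each of 5 for Zap70 at most 1219, and under each of 5 for Txk at most 1097. All of these are below the dKO means of the same genes in the authors' deposited table, which were 2848, 2737 and 2410. Those dKO means were not split, so whether single libraries of the groups overlap is not known. With 1 control library left out, the rise in dKO was 2.56-fold to 12.3-fold for Cd247, 3.75-fold to 17.1-fold for Zap70 and 3.84-fold to 18.7-fold for Txk over their combinations. The upper end of each range came without the control library of size factor 1.02. Its reads again varied most among the combinations, for Txk from 120 to 1124. Which combination is right is not known, so these ends do not mark that library as different.

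Cd247, the zeta chain, lies on chromosome 1 and went against the other CD3 genes. Its mean was 2848 in dKO and 767 in control in the authors' deposited table, 3.71-fold higher (log2 change 1.89 with an approximate error of 0.36, authors' adjusted p = 1.25e-06). The ratio of Cd247 to Cd3e was therefore 2.93 in dKO and 0.238 in control, a 12.3-fold difference in the ratio of their mean counts. The annotated span of Cd247 overlaps that of Pou2f1, the gene of a widely expressed transcription factor, and whether reads were counted by strand is not stated. Pou2f1 had means of 397 in dKO and 383 in control in the authors' deposited table, at an adjusted p of 0.948.

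Per kilobase of merged exons, a scale on which genes can be set beside each other, the order of the chains differed between the groups. In dKO the mean count per kilobase was 2686 for Cd3g, 666 for Cd3e, 625 for Cd247 and 66.8 for Cd3d. In control it was 6963 for Cd3g, 2205 for Cd3e, 377 for Cd3d and 168 for Cd247. The gamma chain was thus the highest and the zeta chain moved past the delta chain, to a level per kilobase next to that of Cd3e in dKO. Exon lengths are from GENCODE M21, which may not be the authors' annotation. They merge all annotated isoforms, 4558 bases for Cd247 and 1617 for Cd3d. Which isoforms were expressed is not known, so the order between genes depends on the lengths used. Without values per library it cannot be said which neighbours in this order differ beyond their spread.

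The start-site sequences of the CD3 genes are shown because 3 neighbouring genes moved together and the deleted factors bind E-boxes. Each window runs from 250 bases before to 50 after an annotated start, from RefSeq on GRCm38.p6, read 5′ to 3′ along the gene's strand, with every CANNTG in capitals.
Cd3e, chr9:45009562-45009861, minus strand: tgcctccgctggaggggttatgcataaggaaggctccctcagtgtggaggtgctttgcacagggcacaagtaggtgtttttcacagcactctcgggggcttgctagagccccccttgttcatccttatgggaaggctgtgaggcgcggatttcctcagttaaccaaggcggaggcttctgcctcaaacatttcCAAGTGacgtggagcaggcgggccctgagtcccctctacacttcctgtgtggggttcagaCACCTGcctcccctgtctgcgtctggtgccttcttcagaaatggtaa
Cd3d, chr9:44981536-44981835, plus strand: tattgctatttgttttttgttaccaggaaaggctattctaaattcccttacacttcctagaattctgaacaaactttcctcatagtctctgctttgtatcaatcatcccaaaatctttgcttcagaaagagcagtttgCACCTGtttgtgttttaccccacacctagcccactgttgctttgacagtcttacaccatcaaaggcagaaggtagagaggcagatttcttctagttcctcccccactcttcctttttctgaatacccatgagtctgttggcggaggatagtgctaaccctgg
Cd3g, chr9:44980382-44980681, minus strand: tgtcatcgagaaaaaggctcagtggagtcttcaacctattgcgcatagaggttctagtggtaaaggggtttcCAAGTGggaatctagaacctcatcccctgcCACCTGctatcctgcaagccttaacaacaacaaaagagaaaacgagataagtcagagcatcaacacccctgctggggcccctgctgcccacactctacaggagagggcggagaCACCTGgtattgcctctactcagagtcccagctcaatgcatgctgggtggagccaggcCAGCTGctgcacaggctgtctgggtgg
Cd247, chr1:165788431-165788730, plus strand: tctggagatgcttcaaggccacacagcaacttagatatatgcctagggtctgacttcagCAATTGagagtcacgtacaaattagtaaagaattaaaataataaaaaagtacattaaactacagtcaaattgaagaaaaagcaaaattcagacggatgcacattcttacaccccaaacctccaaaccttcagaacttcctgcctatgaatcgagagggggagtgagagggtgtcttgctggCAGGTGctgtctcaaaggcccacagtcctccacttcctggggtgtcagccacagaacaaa
The windows of Cd3e, Cd3d and Cd3g held 2, 1 and 4 E-boxes. CACCTG, the complement of CAGGTG, was present in all 3 of them, and Cd3g also held CAGCTG. The single E-box of Cd3d began 112 bases before the start. The window of Cd247, the chain that rose, held CAATTG and CAGGTG, so the CAGGTG letters were found with changes of either direction.

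**Figure D2:**
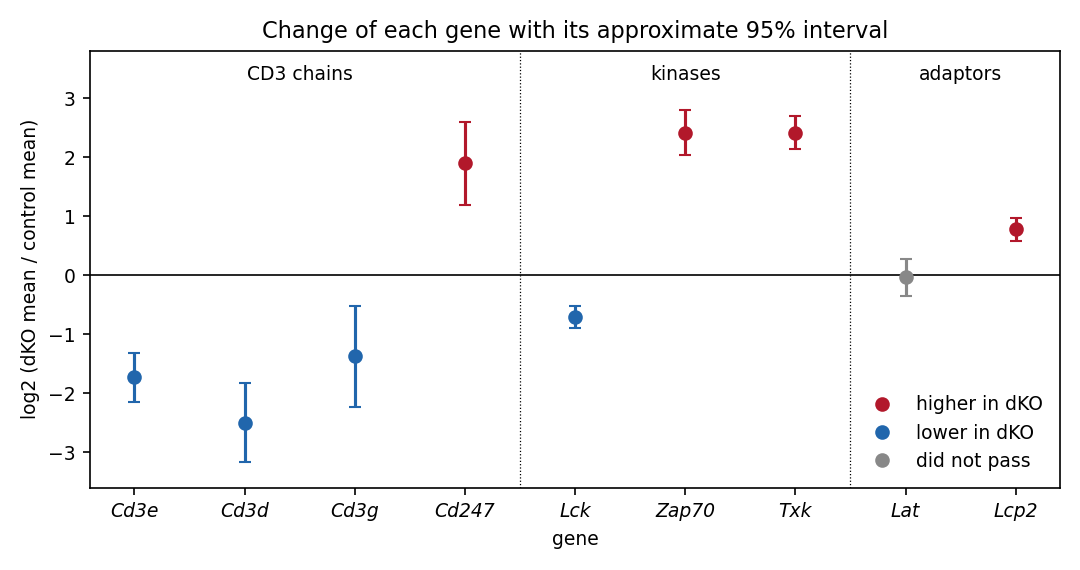
Log2 ratio of the dKO mean to the control mean (y axis) for each gene (x axis), with bars for the approximate 95% interval derived from the authors' p-value. Only the interval of Lat, from -0.35 to 0.28, includes 0.

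Of the 3 kinases, Zap70 and Txk rose and Lck fell. Zap70, the kinase that docks on phosphorylated ITAMs, had a mean of 2737 in dKO and 513 in control in the authors' deposited table, 5.33-fold higher (log2 change 2.41 with an approximate error of 0.20, authors' adjusted p = 7.04e-33). Txk, a Tec family kinase, had 2410 in dKO and 452 in control in the authors' deposited table, also 5.33-fold higher (log2 change 2.42 with an approximate error of 0.14, authors' adjusted p = 1.06e-60). From the top of the 10302 genes Txk was ranked 185 and Zap70 186 by log2 change. Lck, the Src family kinase that starts the cascade, had 10448 in dKO and 17077 in control in the authors' deposited table, 1.63-fold lower (log2 change -0.71 with an approximate error of 0.095, authors' adjusted p = 1.69e-12). Although it fell, Lck remained the highest of the 3 per kilobase of merged exons, with 4509 in dKO and 7370 in control. Zap70 had 1219 per kilobase in dKO and 229 in control, and Txk had 986 in dKO and 185 in control. The ratio of Zap70 to Lck mean counts was 0.262 in dKO and 0.0301 in control. The annotated spans of Zap70 and Lcp2 also overlap a further gene each, neither of which was matched in the table, so a share of their reads is uncertain in the same way as for Cd247. Those of Lck and Lat overlap a microRNA gene each. Besides Pou2f1, the span of Cd247 overlaps a small nuclear RNA gene and a long noncoding RNA gene. Counts of these RNA genes were not examined.

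The first annotated start windows of the kinases that rose are shown in the same form, for comparison with those of the CD3 genes that fell.
Zap70, chr1:36761548-36761847, plus strand: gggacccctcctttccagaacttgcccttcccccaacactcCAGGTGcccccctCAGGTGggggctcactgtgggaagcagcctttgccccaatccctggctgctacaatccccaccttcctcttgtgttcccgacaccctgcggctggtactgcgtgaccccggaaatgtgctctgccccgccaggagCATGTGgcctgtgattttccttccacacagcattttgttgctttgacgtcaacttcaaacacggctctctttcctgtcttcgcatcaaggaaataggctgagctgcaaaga
Txk, chr5:72752728-72753027, minus strand: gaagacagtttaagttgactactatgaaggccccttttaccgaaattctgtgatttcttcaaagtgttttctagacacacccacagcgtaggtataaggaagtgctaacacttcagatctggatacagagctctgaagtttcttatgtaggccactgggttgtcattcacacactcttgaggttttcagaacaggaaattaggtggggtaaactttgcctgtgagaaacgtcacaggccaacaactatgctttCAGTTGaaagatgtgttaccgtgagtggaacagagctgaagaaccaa
The Zap70 window held CAGGTG in 2 places and CATGTG, whereas that of Txk held CAGTTG as its single E-box. Over the 13 annotated starts of the 9 genes, 12 windows held at least 1 E-box and 8 held CAGGTG or CACCTG. Genome-wide, 72.3% of 32851 start windows held an E-box, 20.2% held CAGGTG or CACCTG and 16.3% held CAGCTG, counting both strands, and the more specific motifs are among the E-boxes. CAGGTG or CACCTG was present at some start of all 4 genes that fell and of 2 of the 4 that rose, Cd247 and Zap70. The windows of Txk, Lat and Lcp2 held neither, and that of Lcp2 held CAGCTG. These letters describe the windows and are not evidence of binding.

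Of the 2 adaptors, Lcp2 rose and Lat did not pass. LAT, the membrane scaffold phosphorylated by ZAP-70, had near-equal means of its gene Lat, 5042 in dKO and 5164 in control, in the authors' deposited table (authors' adjusted p = 0.966). The approximate 95% interval of its log2 change, -0.35 to 0.28, leaves room for a modest change in either direction. Lcp2, which encodes the cytosolic adaptor SLP-76, had 9110 in dKO and 5323 in control in the authors' deposited table, 1.71-fold higher (log2 change 0.78 with an approximate error of 0.10, authors' adjusted p = 2.7e-13). Per kilobase of merged exons Lat stood at 4050 in dKO and 4148 in control, and Lcp2 at 2175 in dKO and 1271 in control.

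The surroundings of the CD3 genes on chromosome 9 did not move as a block. In chromosome order the coding genes are Atp5l, Ube4a, Cd3g, Cd3d, Cd3e, Mpzl2, Mpzl3 and Jaml, named Amica1 in the table, and they were chosen by position after earlier results were known. Mpzl2, which encodes an adhesion protein and lies next to Cd3e, was the gene with the largest fall of these 8, with 4.36 in dKO and 1160 in control in the authors' deposited table (authors' adjusted p = 1.33e-71). Its recovered normalised counts in dKO were 3.46, 0 and 9.63, so its dKO mean rests on few reads. Atp5l, a subunit gene of the ATP synthase, rose to 2152 in dKO, against 1674 in control in the authors' deposited table, near the threshold (adjusted p = 0.0429). Ube4a, a ubiquitin ligase gene beside Cd3g, had 2260 in dKO and 2208 in control in the authors' deposited table, without passing. Beyond Mpzl2, Mpzl3 had 47.5 in dKO and 18.3 in control in the authors' deposited table, without passing. Jaml, an adhesion receptor gene, rose 5.75-fold, with 360 in dKO and 62.6 in control in the authors' deposited table (authors' adjusted p = 0.0129). The recovered counts of Jaml were 133, 493 and 455 in dKO libraries and 31.2, 70.4 and 86.2 in control libraries. The run of genes that fell, Cd3g to Mpzl2, was bounded by Ube4a and Mpzl3, which did not pass.

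**Figure D3:**
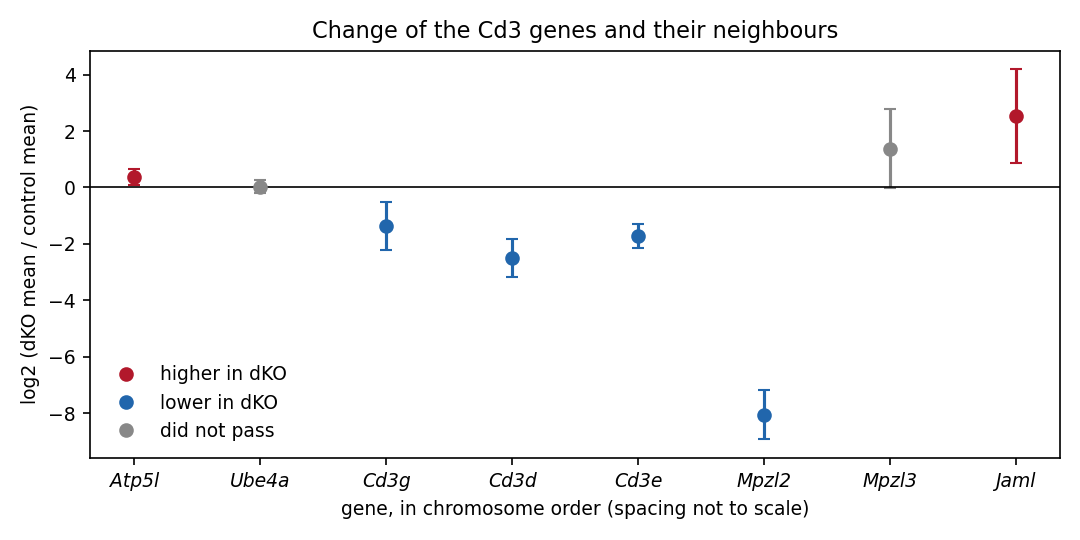
Log2 ratio of the dKO mean to the control mean (y axis) for coding genes in chromosome order around the Cd3 genes (x axis), with bars for the approximate 95% interval. Cd3g, Cd3d, Cd3e and Mpzl2 lie below 0, between -1.37 and -8.05.

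Around the 9 genes, 83 further genes of the pathway were counted in 5 lists, of which 32 rose and 20 fell, 31 did not pass, and the median log2 change was 0.27. Beside these and the list counts below, 15.1% of all tested genes rose and 13.8% fell. At a mean of at least 100, 21.2% rose and 19.1% fell. Of the pre-TCR chain and the coreceptors and costimulators, 8 genes, 2 rose and 4 fell, with a median of -1.34. Ptcra, the pre-TCR alpha chain, had 1.52 in dKO and 924 in control in the authors' deposited table, 609-fold lower (adjusted p = 4.06e-111). Its dKO mean rests on recovered reads of 2, 2 and 1. Cd5, a negative regulator of TCR signals, fell 7.96-fold, with 38.9 in dKO and 310 in control, in the authors' deposited table. Cd28 and Cd2, receptors of costimulation and adhesion, rose 9.80-fold (1217 in dKO, 124 in control) and 8.41-fold (1281 in dKO, 152 in control) in the authors' deposited table. Cd4 fell and Cd8a did not pass, and both were scarce in cells sorted without CD4 and CD8. The recovered counts of Cd4 were 61.4, 38.1 and 4.82 in dKO libraries and 81.0, 109 and 121 in control libraries. At means of 34.8 in dKO and 104 in control, Cd4 had an adjusted p of 0.0101 in the authors' deposited table, and it was named after its values were seen. The recovered counts of Cd8a were 19.0, 29.8 and 32.8 in dKO libraries and 12.7, 7.35 and 8.50 in control libraries. At means of 27.2 in dKO and 9.51 in control, its adjusted p was 0.298 in the authors' deposited table. Cd8b1 had 0.288 in dKO and 1.10 in control in the authors' deposited table. Its recovered reads in control were 0, 2 and 1, and its dKO mean equals the worth of 1 read.

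Among 21 Src, Syk and Tec family kinases and their regulators, 7 rose and 7 fell, 7 did not pass, and the median log2 change was -0.049. Syk, the relative of ZAP-70 that B cells and early thymocytes use and that is named Sykb in the table, moved opposite to Zap70. It had 1295 in dKO and 5264 in control in the authors' deposited table (adjusted p = 1.93e-55), a 4.06-fold fall. The ratio of Zap70 to Syk mean counts was 2.11 in dKO and 0.0975 in control, a 21.7-fold difference. Btk, the Tec family kinase of B cells, moved opposite to Txk and fell 3.73-fold (795 in dKO, 2963 in control; authors' adjusted p = 1.3e-22) in the authors' deposited table. Sh2d2a, an adaptor that binds Lck, rose 2.64-fold (5000 in dKO, 1896 in control) in the authors' deposited table. Fyn, the other Src kinase of T cells, had 3103 in dKO and 2026 in control in the authors' deposited table, without passing (adjusted p = 0.466). The approximate error of its log2 change was 0.53. Cblb, a ubiquitin ligase that restrains the pathway, had 1452 in dKO and 1502 in control in the authors' deposited table, without passing.

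Of 21 further adaptors and scaffolds, 7 rose and 5 fell, 9 did not pass, and the median log2 change was 0.22. Skap1, a T cell adaptor of integrin activation, rose 4.63-fold (7834 in dKO, 1693 in control), and Grap2, which encodes Gads, the link between LAT and SLP-76, rose 2.50-fold (658 in dKO, 263 in control), in the authors' deposited table. Grap, a relative of Grb2, rose 2.16-fold (1550 in dKO, 717 in control) and Sh3bp2 fell 2.33-fold (364 in dKO, 846 in control) in the authors' deposited table. Grb2, the general adaptor to Ras, and Tespa1, a regulator of TCR calcium signals, did not pass. Grb2 had 3692 in dKO and 3515 in control, and Tespa1, named 5830405N20Rik in the table, had 2417 in dKO and 2658 in control, in the authors' deposited table. The other members of the list that fell were Skap2, Lat2, Fyb and Trat1, named here after their values were seen.

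Downstream of LAT and SLP-76, 28 effectors were counted, of which 14 rose and 4 fell, 10 did not pass, and the median log2 change was 0.45. Rasgrp1, the Ras activator that responds to diacylglycerol, rose 3.53-fold (7256 in dKO, 2056 in control), and Prkcq, protein kinase C theta, rose 2.59-fold (6558 in dKO, 2530 in control), in the authors' deposited table. Plcg2, the phospholipase C gamma of B and myeloid cells, fell 3.45-fold (1849 in dKO, 6385 in control; authors' adjusted p = 2.21e-48) in the authors' deposited table. Its T cell counterpart Plcg1 fell too, 1.86-fold (1039 in dKO, 1931 in control; authors' adjusted p = 8.7e-09), and the other falls were Vav3 and Dgkz, in the authors' deposited table. Plcg1, Vav3 and Dgkz were named after their values were seen. Vav1, the exchange factor bound to SLP-76, had 5896 in dKO and 6912 in control, and Nfatc1 had 5040 in dKO and 3581 in control, in the authors' deposited table. Neither passed.

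Signalling chains of other receptors formed the last list. Of 5 ITAM or DAP10 chains 2 rose, none fell and 3 did not pass at the authors' adjusted p, with a median log2 change of 0.26, and none of the 5 was lower at an unadjusted p under 0.05. The number that passed is near the 40.4% of all tested genes with a mean of at least 100. Fcer1g, the Fc receptor gamma chain that can pair with the zeta chain, rose 1.74-fold (1275 in dKO, 732 in control), and Hcst, which encodes DAP10, rose 2.23-fold (317 in dKO, 142 in control), in the authors' deposited table. Tyrobp, which encodes DAP12, had 1339 in dKO and 1186 in control, and Cd79b, a B cell receptor chain, had 1041 in dKO and 1143 in control, in the authors' deposited table. Neither of these passed.

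**Figure D4:**
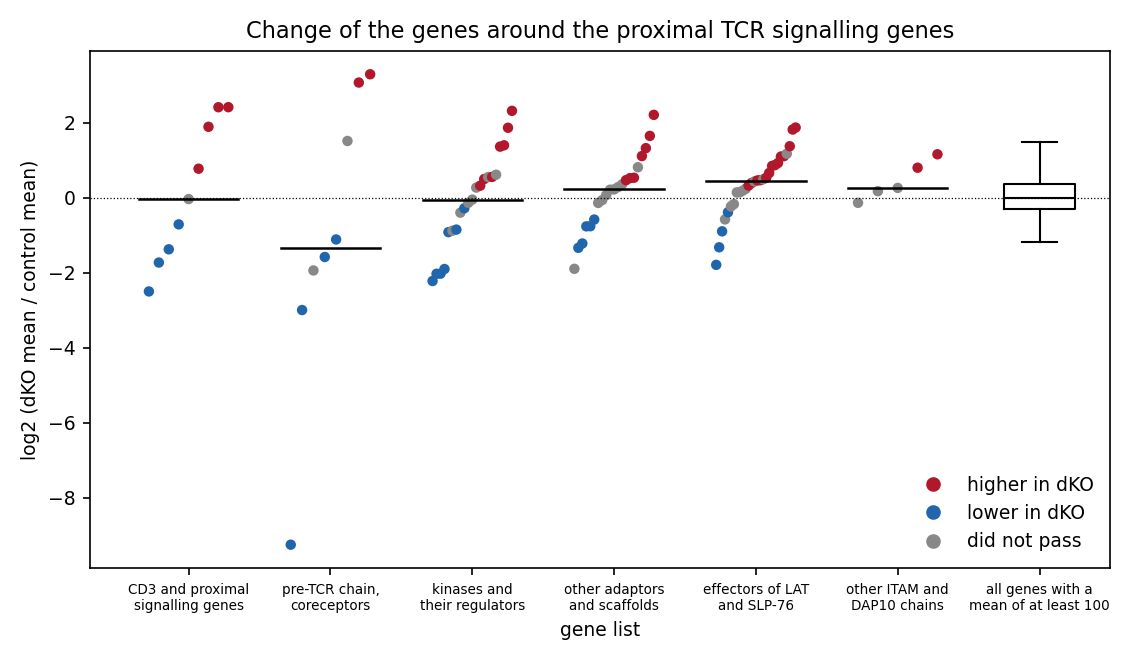
Log2 ratio of the dKO mean to the control mean (y axis) for the 9 genes and 5 lists around them (x axis), 1 point per gene with the list median as a line. The box shows the quartiles of all tested genes with a mean of at least 100 and without a 0, with whiskers at the 5th and 95th percentiles, and Blnk, at 0 in dKO, is drawn at its floor of 3 reads. The list of LAT and SLP-76 effectors has its median at 0.45.

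Markers of some other cell types differed between the groups along with these genes, while no erythroid marker passed. Beside the counts below, 15.1% of all tested genes rose and 13.8% fell. At a mean of at least 100, 21.2% rose and 19.1% fell, and the count of the stromal list is near these shares. Of 6 NK cell markers all 6 were higher, with summed means of 1871 in dKO and 408 in control, and of 6 markers of type 2 innate lymphoid cells 5 were higher, summed to 62604 in dKO and 16108 in control. Of 5 markers of double-positive thymocytes 1 was higher and 2 were lower, summed to 900 in dKO and 2358 in control. Of 6 myeloid markers 3 were lower, with Cd14 and S100a8 at 0 in both groups, summed to 2067 in dKO and 8644 in control. Of 6 B cell markers 2 were lower, with Ms4a1 and Pax5 at 0 in both groups, summed to 116 in dKO and 438 in control. Of 4 gamma delta T cell markers, which share Blk with the B cell list, 2 were higher and 2 lower, summed to 23429 in dKO and 10207 in control. None of 4 erythroid markers passed in the authors' DESeq test, nor at an unadjusted p under 0.05 (136 in dKO, 202 in control), and of 5 stromal markers 1 was lower, with Pdgfra at 0 (2422 in dKO, 2875 in control). The part of these differences in the changes of the CD3 and signalling genes was not tested.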

How the data were processed

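RNA-seq of sorted ETPs (3 dKO and 3 control libraries) was prepared with a low-input SMARTer kit and sequenced on an Illumina HiSeq, per the labels' protocols. Amplification from few cells makes reads depend on each other. Build mm9 and the tools TopHat2 2.0.14, bcl2fastq 1.8.4 and DESeq version 2 are named without a role in the submitters' processing notes. The sources used here do not give the counter, the annotation or the strand setting. The 2 signal columns are, per the file headers, mean normalised counts by group from the authors. The fold column is a ratio of dKO over control and the p-value and adjusted p-value columns come from the authors' own test, as deposited. Of 22609 genes 16241 were tested and 6368 were at 0 in both groups.

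Log2 changes were computed from the means, with a group at 0 set to 3 reads of its library of smallest size factor (0.963 in dKO, 1.21 in control). The approximate standard error is the log2 change over the normal quantile of the authors' p-value, and the 95% interval is 1.96 errors either way. The deposited means were solved for whole reads per library up to a mean of 1000. A value per library is given where 1 combination fits within 1.2 times the rounding of the printed mean, and of the listed means under 1000 this held for 36 of 60 in dKO and 24 of 70 in control. Recovered libraries carry no sample label. The solving for whole reads and the approximate error were tested on simulated data. The simulated means were well below 1000, so recovery from the higher means given here was not tested in this way. Symbols absent from the table were matched through RefSeq synonyms (Syk, Tespa1, Jaml). Genes in the lists were named by rule: up to 4 of those that passed, by smallest adjusted p, and the most abundant 2 of the rest. Some genes that this rule takes are not reported here. The genes, lists and rules were chosen with earlier results of these data known. No set test was run. Promoter windows are RefSeq's on GRCm38.p6. Protein sequences were not used here. Python 3.11.15, numpy 2.4.6, pandas 2.3.3 and scipy 1.17.1 were used.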

Additional observations from a re-analysis of the deposited data

How the results depend on the processing

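The counts of 4 higher and 4 lower among the 9 genes were the same at an adjusted p under 0.01 or 0.1, with the adjustment redone over genes with a mean of at least 10 or 100, with a minimum of 1.5-fold, and with the group means rescaled to equal totals or to a median change of 0. The rescaling to equal totals lowered each log2 change by 0.082, and p-values were then taken from the approximate errors. With the stricter and the looser threshold the pathway lists held 30 and 35 genes that rose and 17 and 22 that fell. Over all tested genes 11.7% and 17.4% rose and 10.2% and 16.1% fell at these thresholds. Every log2 change of the 9 genes kept its sign under both rescalings and with a pseudocount of 1 or 10. Leaving out 1 library at a time was chosen after the data were examined and used every combination of reads that gives a mean. Without 1 dKO library the log2 change was -3.41 to -2.10 for Cd3d and -1.92 to -1.46 for Cd3e. Without 1 control library it was -3.08 to -0.73 for Cd3d and 1.35 to 3.62 for Cd247. It was 1.91 to 4.09 for Zap70 and 1.94 to 4.22 for Txk, so the size depended on the combination. For Cd3d and Cd3e each dKO library lay below the control mean, so leaving out 1 dKO library could not change the direction. Nor could leaving out 1 control library for Cd247, Zap70 and Txk, whose control libraries all lay below the dKO mean. For Cd3d without 1 control library the direction was not fixed in this way, and it held. Means above 1000 were not split, so no library was left out for Cd3g, Lck, Lat and Lcp2, no control library for Cd3e and no dKO library for Cd247, Zap70 and Txk. No paired analysis was possible because the table gives means of the groups and the recovered libraries carry no replicate number. Depth limits the lowest means most, such as the dKO mean of Ptcra, which rests on 5 reads. Recovered reads were amplified from few cells, so they overstate the number of molecules.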
